A study of Mus musculus with 4 samples.

Results

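The tyrosine and dual-specificity phosphatases were read in bone marrow cells of C57BL/6J mice with MN1 leukemia and in mature myeloid marrow cells of healthy mice. Members were the genes whose only platform symbol began with Ptpn, Ptpr or Dusp as a family name, leaving out Ptprcap, which encodes a partner of CD45 and not a phosphatase. The rule reads names and no measured value, although the family was picked with earlier results of these data known. The rule found 128 probe sets of 58 genes, among 18194 genes with 1 symbol on the array, and 1 probe set stood for each gene, the one brightest on average over the 4 arrays. Of the 58 genes, 38 had a mean signal over the 4 arrays high enough to be tested and 20 did not. Ptpn7, Ptprh, Ptprq and Ptprt had no probe set naming them alone here.

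The leukemic group had 2 arrays, labelled MN1 leukemic. Its donors' marrow was taken 4 days after 150 mg/kg fluorouracil, kept for 48 hours in culture with interleukin-6, interleukin-3 and stem cell factor, given MN1 by a retrovirus and sorted for GFP. The cells were injected into syngeneic mice irradiated with 750 cGy, together with fresh normal marrow that kept the recipients alive. The labels do not say that the leukemic marrow was sorted again at harvest, so cells of the recipient or of the added marrow may be in it. The mature group, labelled Gr1/Mac1, had 2 arrays of marrow cells positive for the myeloid antigens Gr1 and CD11b from healthy mice that carried no MN1 vector. The treatment text is the same for all samples, and it gives neither the age and sex of the mice nor the promoter that drove MN1 nor the number of mice per array. Normal immature marrow was not on any array here, so leukemia and immaturity cannot be told apart.

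Protein tyrosine phosphatases remove phosphate from tyrosine and so oppose or, by freeing an inhibited kinase, help the tyrosine kinases that cytokine and adhesion receptors switch on. The non-receptor enzymes lie in the cytoplasm, while the receptor enzymes cross the membrane and carry adhesion-like outer parts. The dual-specificity phosphatases also act on serine and threonine, and the MAP kinase phosphatases among them inactivate ERK, JNK and p38. In myeloid cells the family is best known for SHP-1, which inhibitory receptors recruit to restrain signalling, for SHP-2, which promotes RAS signalling, and for CD45, a surface protein of nearly all leukocytes.

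Signals are MAS5 values, linear intensities, which on each array stand at a common level (a trimmed mean of 500.003 to 500.004). Fold changes compare leukemic with mature marrow as a difference of log2(signal + 16), a scale on which dim genes change less than their signals do, and are positive where leukemic marrow read higher. A gene passed at a limma adjusted p under 0.05, by Benjamini-Hochberg over the 12378 genes tested. Median signals were 80.9 to 85.3 in the leukemic and 59.1 to 74.8 in the mature arrays, and the 3′ to 5′ ratio of beta-actin, a sign of RNA integrity, was 3.09 to 3.28 against 1.32 to 1.39. Hybridization controls read 8950 to 11918 against 4044 to 4168 (geometric mean of 18 probe sets). Mature replicate 2 stood apart in sex-linked genes, with Xist at 114 against 7138 to 19642 in the other arrays. The part of these differences between arrays in the results was not tested. As a check of the labels, Itgam, which encodes CD11b, read 584 and 306 in leukemic and 4288 and 4407 in mature marrow. The Gr1 genes Ly6g, Ly6c1 and Ly6c2 had no probe set naming them alone, so Gr1 was not checked. All 8 tested stem and progenitor markers were higher in leukemic marrow. They are no check of the labels, since they were chosen with earlier results of these data known.

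Of the 38 tested phosphatase genes, 20 passed, 9 higher and 11 lower in leukemic marrow. By size of fold change, the largest falls were those of Ptpro, Dusp1, Dusp22, Dusp6, Ptpn22 and Ptpn6, and the largest rises those of Ptprs, Ptprf, Dusp8, Dusp2 and Ptpn4. Over all tested genes 43.4% passed, 27.5% higher and 15.9% lower, against 52.6%, 23.7% and 28.9% of the phosphatases. The median log2 fold change was 0.12 over the phosphatases and 0.28 over all tested genes, and the median size without sign was 1.40 against 0.85. Log2 fold changes of the passing genes ran from -4.18 to -0.74 among the lower and from 1.49 to 3.19 among the higher. Relative to the median of all genes, all 20 kept their sign, the nearest lying 1.02 from it. In bulk RNA, fewer cells of a type and less RNA per cell cannot be told apart.

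The split between directions depended on the scaling of the arrays. With arrays scaled to the hybridization controls, using the mean factor of each group, 5 members were higher and 19 lower, and the median over all genes moved from 0.28 to -0.95. In that setting 20.8% of the passing members were higher, against 45.0% as deposited, and of all passing genes 15.4% against 63.3%. Of all 12378 tested genes, 5944 were lower and 1083 higher in that setting. Every call and count given below for the hybridization controls stands beside that array-wide shift. With every array at the same median, 9 were higher and 12 lower. The 11 lower members were lower and passed in all 3 of these settings, while 4 of the 9 higher members, Dusp12, Dusp16, Dusp19 and Ptprv, did not pass with the hybridization controls and kept their direction.

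**Figure D1:**
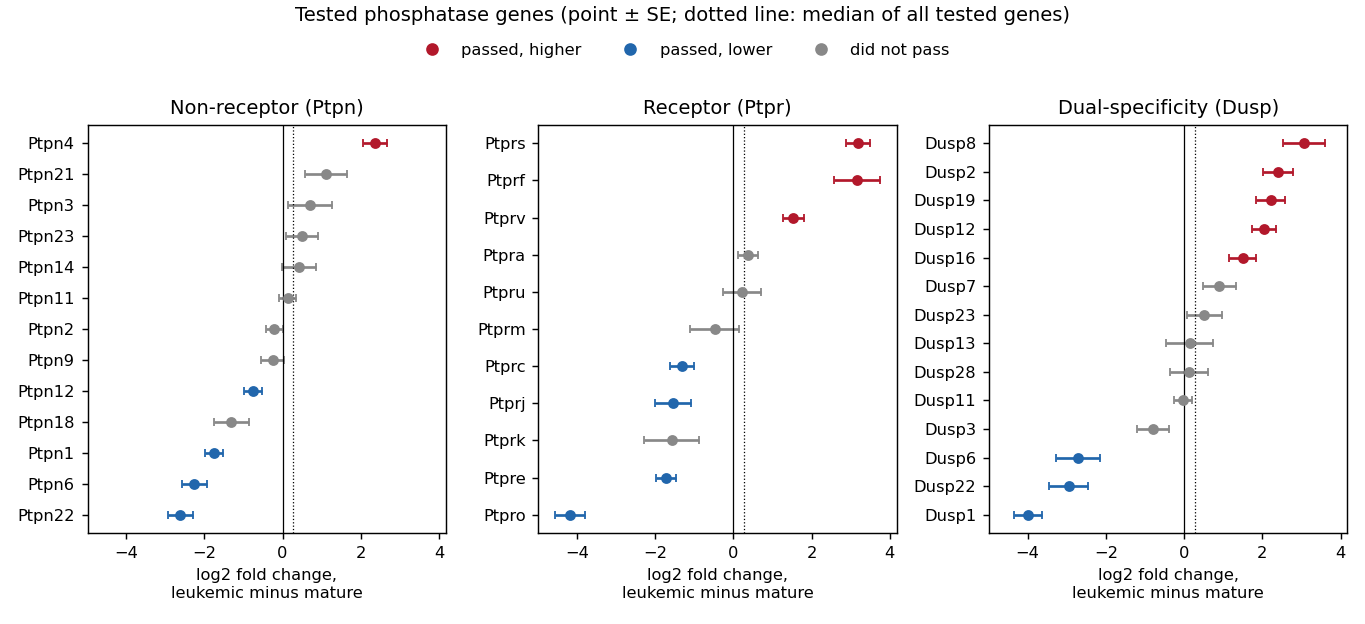
Log2 fold change (leukemic minus mature, x axis) of the 38 tested phosphatase genes (y axis) in 3 families, as points with the SE as bars; the solid line is 0 and the dotted line the median of all tested genes, 0.28. Ptpro (-4.18) and Dusp1 (-3.99) lie at the low end and Ptprs (3.19), Ptprf (3.16) and Dusp8 (3.06) at the high end, and genes in grey did not pass.

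Among the non-receptor phosphatases, 4 of 13 tested members were lower, 1 was higher and 8 did not pass. Beside these stand 15.9% lower and 27.5% higher of all tested genes. The family median was -0.21, against 0.28 over all tested genes. It was -0.01 with quantile normalization, with 3 lower, and -1.54 with the hybridization controls, with 8 lower. Ptpn6, which encodes SHP-1, the phosphatase that binds inhibitory receptors through its SH2 domains, read 2864 and 2020.3 in leukemic and 14754 and 9046 in mature marrow. Both mature arrays lay at least 3.16 times above either leukemic array. The log2 fold change was -2.26 (SE 0.32, limma adjusted p = 0.0021). A second probe set of Ptpn6, which can match other transcripts, gave -1.24 (SE 0.29). Ptpn11 encodes SHP-2, the other phosphatase with paired SH2 domains, which promotes RAS and ERK signalling below growth factor receptors. It read 4343 and 4149 in leukemic and 4233 and 3559.9 in mature marrow, so the groups overlapped. Its log2 fold change was 0.13 (SE 0.23, adjusted p = 0.68) and turned to -1.20 with the hybridization controls (adjusted p = 0.0040; range over alternatives 0.0040 to 0.99).

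Ptpn1 and Ptpn2 encode the related enzymes PTP1B and TC-PTP, which act on JAK kinases and on growth factor receptors. Ptpn1 read 2689 and 2341 in leukemic and 9454 and 7602 in mature marrow, with no overlap, a log2 fold change of -1.75 (SE 0.24, limma adjusted p = 0.0018). Its second probe set gave -1.997 (SE 0.26). Ptpn2 read 4648 and 4901 against 5737 and 5339, close together though without overlap, and did not pass (-0.21, SE 0.22, adjusted p = 0.47), but passed as lower with the hybridization controls (-1.54, adjusted p = 0.0012; range over alternatives 0.0012 to 0.97). The other 3 kept probe sets of Ptpn2 lay at 0.26, 0.36 and 0.68, none of them past the threshold.

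The PEST group holds phosphatases with a proline-rich tail. Ptpn22, which restrains Src family kinases below antigen and innate receptors, read 504 and 280 in leukemic and 2636 and 2144 in mature marrow. Each mature array was at least 4.26 times either leukemic array, and the log2 fold change was -2.61 (SE 0.33, limma adjusted p = 0.0015). Ptpn12, which acts on adhesion proteins such as p130Cas, read 6413 and 6685 against 10105 and 11919 and fell by 0.74 on the log2 scale (SE 0.23, adjusted p = 0.038). That call was lost in 8 of 16 alternatives (range of adjusted p 5.1e-04 to 0.17). Ptpn18 read 1877 and 1345 against 6358 and 2449 and lay just beyond the threshold (-1.30, SE 0.45, adjusted p = 0.051; range over alternatives 0.0026 to 0.46). Without mature replicate 2 it was at -1.99, and its dimmer probe set was at 0.58 (SE 0.43).

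The FERM group carries a domain that ties the enzyme to the membrane skeleton. Ptpn4 read 836 and 1050 in leukemic and 203 and 142 in mature marrow and rose by 2.36 (SE 0.31, limma adjusted p = 0.0017), the lower leukemic array being 4.12 times the higher mature array. The 3 others tested, Ptpn3 (0.71, SE 0.57), Ptpn14 (0.42, SE 0.43) and Ptpn21 (1.12, SE 0.53), did not pass. Among the remaining non-receptor genes, Ptpn9 read 1021 and 961 against 930 and 1499 and Ptpn23 202 and 319 against 231 and 133. Both overlapped between groups and did not pass. Ptpn9, scaled to the hybridization controls, passed as lower (adjusted p = 0.0042; range over alternatives 0.0042 to 0.77).

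Receptor phosphatases were lower in 4, higher in 3 and did not pass in 4 of 11 tested cases. Beside these stand 15.9% lower and 27.5% higher of all tested genes. The family median was -0.47, against 0.28 over all tested genes. On the scale of the hybridization controls 6 receptor phosphatases were lower and 2 higher (median -1.47). Ptprc encodes CD45, which frees Src family kinases from their inhibitory phosphate. It read 16612 and 10797 in leukemic and 29810.4 and 36867 in mature marrow, and the log2 fold change was -1.31 (SE 0.31, limma adjusted p = 0.013). The groups did not overlap, the nearest arrays being 1.79-fold apart, and without leukemic replicate 2 the gene was at -0.996 and did not pass (adjusted p = 0.083; range over alternatives 6.0e-04 to 0.083). A second probe set of Ptprc read 423 and 285 against 2879 and 5509.8 and gave -3.46 (SE 0.37), far from the first.

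The R3 receptors, with a single catalytic domain and fibronectin-like repeats, moved both ways. Ptpro, known from podocytes and from osteoclasts and macrophages, read 89.7 and 84.7 in leukemic and 2679 and 1276 in mature marrow. The lower mature array was 14.2 times the higher leukemic array, and the log2 fold change was -4.18 (SE 0.39, limma adjusted p = 6.0e-04). Its dimmer probe set also fell, at -1.998 (SE 0.49). Ptprj, which encodes CD148, an activator of Src family kinases in macrophages and platelets, read 180.4 and 142 against 311 and 788. It fell by 1.54 (SE 0.46, adjusted p = 0.033), a call lost in 5 alternatives, among them without mature replicate 2, when it was at -0.89 (adjusted p = 0.095; range 0.0027 to 0.16). Ptprv, which encodes a phosphatase first found in bone cells and testis, read 686 and 697 in leukemic and 234 and 223 in mature marrow. Replicates lay close together in both groups, and it rose by 1.53 (SE 0.27, adjusted p = 0.0044; range 0.0022 to 0.44). The call was lost with the hybridization controls (0.26) and without leukemic replicate 2 (1.52, adjusted p = 0.061).

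The R4 receptors Ptpra and Ptpre have short outer parts. Ptpre read 4036 and 3034 in leukemic and 10884 and 12197 in mature marrow and fell by 1.71 (SE 0.25, limma adjusted p = 0.0023), and its second probe set fell by 1.61 (SE 0.28). Ptpra, an activator of Src, read 2459 and 2214 against 2117 and 1534 and did not pass (0.37, SE 0.25, adjusted p = 0.28). With the hybridization controls Ptpra turned to -0.95 and passed as lower (adjusted p = 0.017), and with the mean of its probe sets it was at 0.97 and passed as higher (adjusted p = 0.027; range over alternatives 0.017 to 0.83).

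Ptprs and Ptprf belong to the R2A receptors, which carry immunoglobulin-like and fibronectin-like repeats and are best known from neurons and epithelia. Ptprs, which encodes a receptor for proteoglycans, read 1386 and 1156 in leukemic and 152 and 101 in mature marrow, and rose by 3.19 (SE 0.31, limma adjusted p = 6.7e-04). The groups were at least 7.61-fold apart, but the other kept probe set of Ptprs, a dim one, was at -1.001 (SE 0.45) and did not pass. Ptprf, which encodes LAR, read 359 and 227 against 4.51 and 39.3 and rose by 3.16 (SE 0.60, adjusted p = 0.0058). Its mature signals lay below the lowest mean kept for testing, 47.6, so the gene was tested through its leukemic signals, and the change was 4.26 with a pseudocount of 1 and 2.06 with one of 64. Of its other kept probe sets one gave 3.08 (SE 0.49) and the dimmest -0.03 (SE 0.68). Ptprd, the third R2A gene, was too dim to test. None of the 3 tested R2B receptors, which bind their like on the next cell, passed: Ptprk was at -1.58 (SE 0.71), Ptprm at -0.47 (SE 0.62) and Ptpru at 0.23 (SE 0.49). Ptprk read 17.5 and 23.5 in leukemic and 187 and 42.2 in mature marrow. Only its mature replicate 1 lay above 47.6, so the gene was tested through that array. Without mature replicate 2 that array was the whole mature group, and Ptprk was at -2.48.

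**Figure D2:**
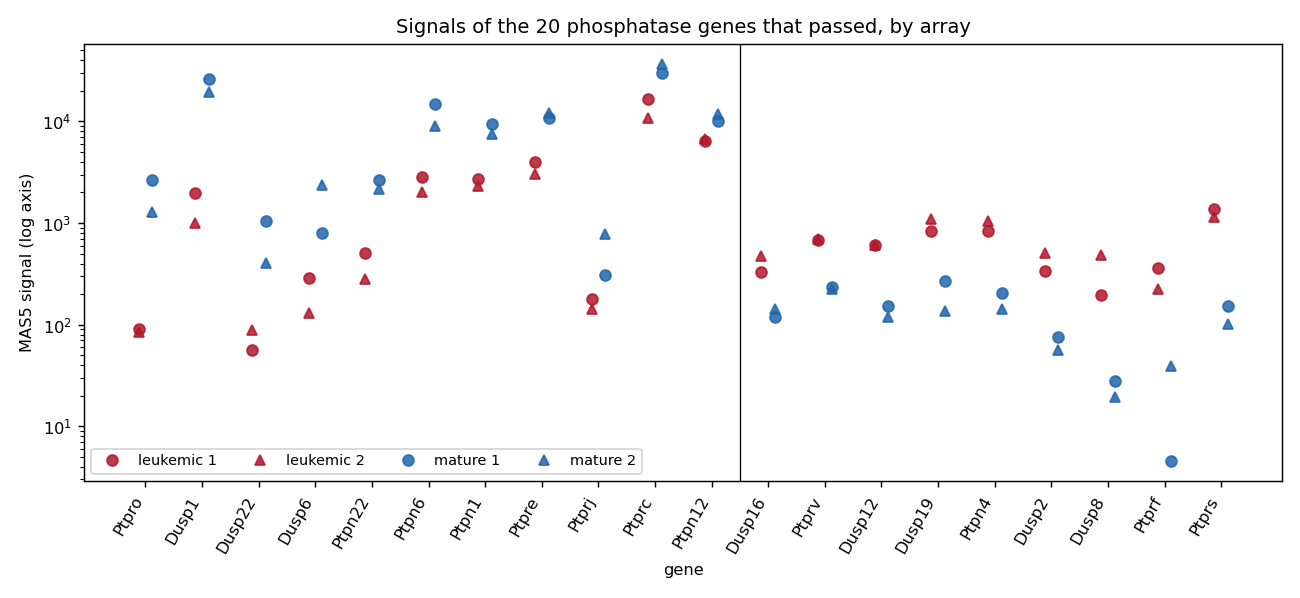
MAS5 signal on a log axis (y) in each of the 4 arrays for the 20 phosphatase genes that passed (x), red for leukemic and blue for mature, circles for replicate 1 and triangles for replicate 2; the vertical line parts the 11 lower from the 9 higher genes. In all 20 genes both arrays of one group lie beyond both of the other, a separation that the choice of passing genes favoured. It was also found in 8 of the 18 tested members that did not pass. The share over all tested genes was not counted. Heights are not comparable between genes.

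Dual-specificity phosphatases were higher in 5, lower in 3 and did not pass in 6 of 14 tested cases. Beside these stand 27.5% higher and 15.9% lower of all tested genes. The family median was 0.33, close to the 0.28 over all tested genes. With the hybridization controls the balance of the family turned, with 5 lower, 2 higher and a median of -0.75. The nuclear MAP kinase phosphatases are made quickly after a stimulus. Dusp1, which encodes MKP-1 and inactivates p38 and JNK, read 1969 and 1004 in leukemic and 26441 and 19308 in mature marrow. Each mature array was at least 9.81 times either leukemic array, and the log2 fold change was -3.99 (SE 0.36, limma adjusted p = 5.4e-04). Dusp2, which encodes the lymphoid and myeloid ERK phosphatase PAC-1, went the other way, at 336 and 510.4 against 75.1 and 55.8, and rose by 2.41 (SE 0.39, adjusted p = 0.0031). Dusp4 and Dusp5, of the same role, were too dim to test.

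Dusp6 encodes MKP-3, which acts on ERK in the cytoplasm and is itself made in response to ERK signalling. It read 287 and 131 in leukemic and 797 and 2363 in mature marrow, with a wide spread in the mature group and no overlap. The log2 fold change was -2.72 (SE 0.56, limma adjusted p = 0.0082). Dusp7, a close relative, read 331 and 324 against 112 and 249.8 and did not pass (0.90, SE 0.42, adjusted p = 0.13). Its 3 probe sets disagreed, at 0.90, -0.04 and -1.12, and without mature replicate 2 the one used was at 1.42 and passed (adjusted p = 0.020; range over alternatives 0.020 to 0.85).

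Dusp8 and Dusp16 encode phosphatases that prefer JNK and p38. Dusp8 read 198 and 489 in leukemic and 28.1 and 19.2 in mature marrow and rose by 3.06 (SE 0.53, limma adjusted p = 0.0042), and its second probe set gave 3.14 (SE 0.50). Like Ptprf, it had mature signals below 47.6 and was tested through its leukemic signals, and its change was 3.68 with a pseudocount of 1 and 2.12 with one of 64. Without leukemic replicate 2 it was at 2.44 and lay just beyond the threshold (adjusted p = 0.051; range over alternatives 4.9e-04 to 0.051). Dusp16, which encodes MKP-7, read 328 and 476 against 118 and 144 and rose by 1.49 (SE 0.35, adjusted p = 0.013). The Dusp16 call was lost without leukemic replicate 2 (1.24, adjusted p = 0.15) and with the hybridization controls (0.26, adjusted p = 0.55; range over alternatives 0.0066 to 0.55). The third gene of this role, Dusp10, was not tested, its signals being 12.2 and 108 against 12.8 and 40.3.

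The promoters of Dusp1 and Dusp8 are shown because Dusp1 fell and Dusp8 rose while both hold the palindrome of the cAMP response element, the site of CREB factors. The motif searched was TGACGTCA, which reads the same on both strands. RefSeq windows of 300 bases (250 before to 50 after a gene's start, GRCm38.p6) were found for 47 of the 58 members, 63 windows in all. The letters stood in 5 of the 63 windows (7.94%) and in 588 of 32851 windows of all genes (1.79%). Besides Dusp1 and Dusp8 the members were Ptprs, which rose, and Ptpn11 and Ptpru, which did not pass. A match is a description of letters and not of binding. The 250 bases before the start follow, from 5′ to 3′ on the gene's strand, with the motif in capitals. Dusp1 lies on the minus strand at chr17:26508473-26508722, and its motif begins 143 bases before the start. Dusp8 also lies on the minus strand, at chr7:142095285-142095534, with 2 copies that begin 107 and 63 bases before the start.
Dusp1: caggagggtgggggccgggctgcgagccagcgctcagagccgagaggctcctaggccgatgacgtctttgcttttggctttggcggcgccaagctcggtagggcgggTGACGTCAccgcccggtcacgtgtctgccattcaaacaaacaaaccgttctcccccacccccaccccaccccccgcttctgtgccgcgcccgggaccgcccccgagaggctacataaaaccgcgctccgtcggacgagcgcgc
Dusp8: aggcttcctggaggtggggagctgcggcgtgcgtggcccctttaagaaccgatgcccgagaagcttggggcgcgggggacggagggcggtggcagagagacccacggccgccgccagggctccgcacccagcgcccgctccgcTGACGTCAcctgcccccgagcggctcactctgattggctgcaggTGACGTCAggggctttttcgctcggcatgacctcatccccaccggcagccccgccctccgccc

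The atypical dual-specificity phosphatases are small enzymes without the MAP kinase docking domain, and 2 of 8 tested were higher, 1 was lower and 5 did not pass. Dusp19 read 842 and 1092 in leukemic and 270.2 and 137 in mature marrow and rose by 2.22 (SE 0.37, limma adjusted p = 0.0037). A second probe set of Dusp19 gave 3.98 (SE 0.58). Dusp12, which carries a zinc-binding domain, read 604 and 607 against 152 and 119.6 and rose by 2.04 (SE 0.30, adjusted p = 0.0025). Its dimmer probe set was at -0.36 (SE 0.68), and the mean of its probe sets was at 0.84 and did not pass (adjusted p = 0.12; range over alternatives 4.4e-04 to 0.71). The calls of Dusp19 (0.95) and Dusp12 (0.79) were also lost with the hybridization controls. Dusp22, which encodes a phosphatase of the JNK and T cell receptor pathways, read 56.2 and 88.1 in leukemic and 1042 and 406 in mature marrow, and fell by 2.95 (SE 0.50, adjusted p = 0.0037). Dusp11, which acts on the 5′ phosphates of RNA, read 2714 and 2972 against 2631 and 3213 and did not pass (-0.03, SE 0.23). Dusp3 (-0.80), Dusp13 (0.14), Dusp23 (0.52) and Dusp28 (0.12) did not pass either. With the hybridization controls Dusp11 (adjusted p = 0.0026; range over alternatives 0.0026 to 0.96) and Dusp3 (adjusted p = 0.0054; range 0.0054 to 0.69) passed as lower.

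Several members that passed have a close relative that did not pass or went the other way. A single factor per array does not change the ratio of both within 1 array, apart from the pseudocount. Quantile normalization, which works by rank, can change it, and the ratios were taken on the deposited scale only. These 6 pairs were picked with their values known, and a level of one gene cannot be set against that of another, so only the change of the ratio is described. On the log2 scale the ratio of Ptpn6 to Ptpn11 was -0.60 and -1.03 in leukemic and 1.80 and 1.34 in mature marrow, a change of -2.39. For Ptpn1 and Ptpn2 it changed by -1.54, and for Ptpre and Ptpra by -2.08. The largest changes of the 6 were those of Dusp1 to Dusp2 (-6.40) and of Ptpro to Ptprv (-5.71), and Dusp6 to Dusp7 changed by -3.62. That last value rests on the brightest of the Dusp7 probe sets, which disagreed (0.90, -0.04 and -1.12). In all 6 pairs the arrays did not overlap between groups, a separation that the choice of the pairs favoured. An exact two-sided permutation test over 2 against 2 arrays can give no p below 0.33, so these ratios carry no test of their own.

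**Figure D3:**
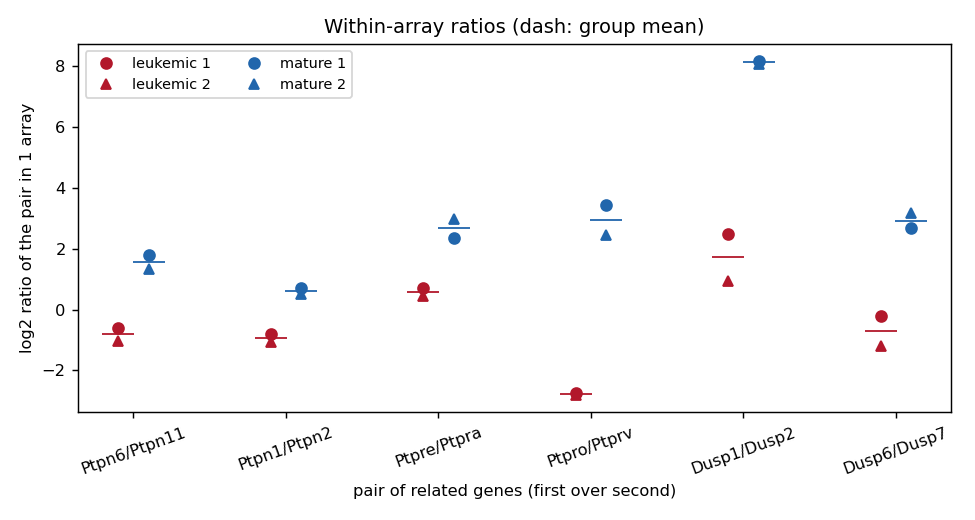
Log2 ratio of the first over the second gene of 6 related pairs (x axis) within each array (y axis), red for leukemic and blue for mature, with a dash at each group mean. In every pair both leukemic arrays lie below both mature arrays, with leukemic minus mature means from -1.54 (Ptpn1/Ptpn2) to -6.40 (Dusp1/Dusp2). The pairs were picked with their values known, which favoured this separation. The height of a pair has no meaning by itself, since it compares different probes.

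Of the 128 probe sets, 66 were bright enough to be tested one by one, and 12 of them were higher and 16 lower. Of all tested genes, at 1 probe set each, 43.4% passed. The share over all kept probe sets was not counted. Several kept probe sets were available for 20 members, and in 13 of these all pointed the same way. No member had probe sets called in opposite directions. Among the members that passed, 12 had several, and 9 of the 12 agreed in sign, the exceptions being Dusp12, Ptprf and Ptprs, each with 1 dim probe set near or below 0.

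**Figure D4:**
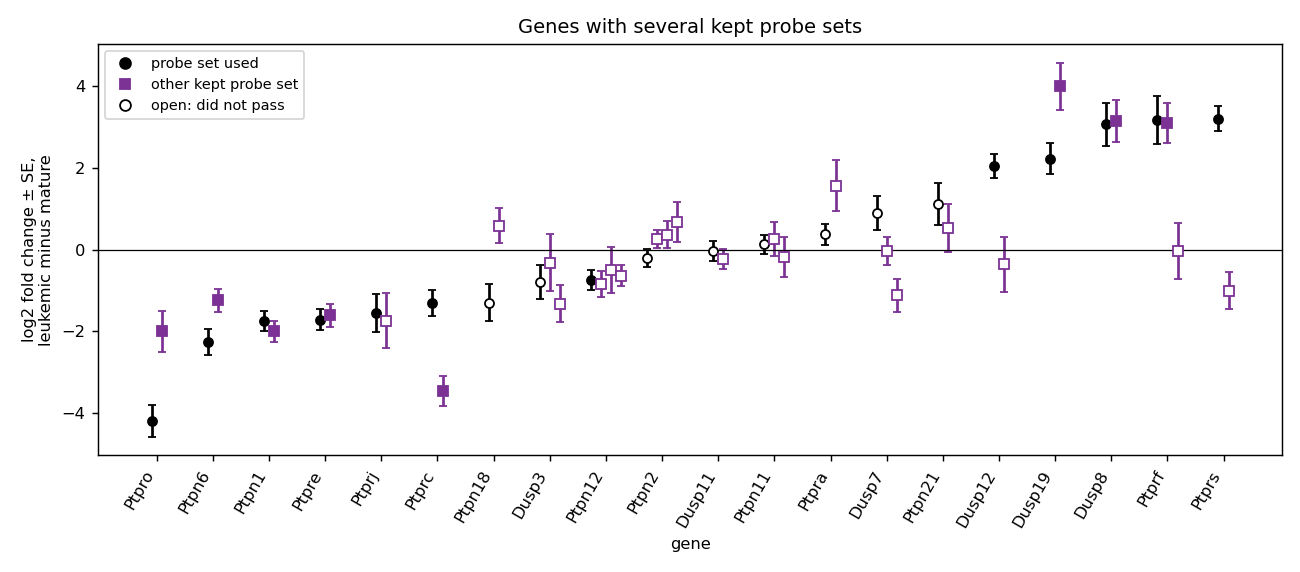
Log2 fold change with SE (y axis) of every kept probe set of the 20 members with several (x axis), black circles for the probe set used, purple squares for the others, open where the probe set did not pass when each was tested. Both probe sets of Ptpn1, Ptpre and Dusp8 lie close together, those of Ptprc (-1.31 and -3.46) lie far apart, and those of Ptprs lie on opposite sides of 0.

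The 20 members left untested had mean signals of 10.6 to 45.2 and single signals of 1.06 to 108. They were Dusp4, Dusp5, Dusp9, Dusp10, Dusp14, Dusp15, Dusp18, Dusp21, Dusp26, Dusp27, Ptpn5, Ptpn13, Ptpn20, Ptprb, Ptprd, Ptprg, Ptprn, Ptprn2, Ptprr and Ptprz1. Without the filter on low signals 2 of them passed. Dusp9, an ERK phosphatase, read 64.7 and 71.5 in leukemic and 10.7 and 8.33 in mature marrow (1.72, limma adjusted p = 0.032). Ptpn5, best known from the brain, read 9.40 and 2.93 against 66.8 and 38.7 (-1.62, adjusted p = 0.044). Both are dim, and their calls rest on that setting.

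Genes around the phosphatases were read from lists drawn up from textbook knowledge. Of 17 tested receptors and adaptors that dock SHP-1 or SHP-2, 13 were lower and 2 higher, with a median of -1.97 against 0.28 over all genes. The inhibitory receptor genes Pirb (1453 and 632 in leukemic, 13411 and 12483 in mature marrow, -3.73), Clec4a2 (-2.84) and Sirpa (-3.00) were among the lower. Gab1, an adaptor for SHP-2, read 1553 and 1756 against 95.1 and 76.2 and was higher by 4.04 (SE 0.28, limma adjusted p = 2.5e-04). With the hybridization controls 15 of the 17 were lower and 1 higher, beside 5944 lower and 1083 higher of all 12378 tested genes.

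Src family kinases and their brakes, on which CD45 and Ptpn22 act, had 5 tested members, 3 lower and 1 higher (median -0.77). Fgr (-3.53, SE 0.34), Pag1 (-2.85, SE 0.32) and Csk (-0.77, SE 0.22) fell, and Fyn rose by 1.82 (SE 0.41), a call lost with the hybridization controls (0.57). Of 13 tested MAP kinases and MAP kinase kinases, the substrates of the Dusp enzymes and the kinases above them, 3 were lower, 1 was higher and 9 did not pass (median -0.18). Scaling to the hybridization controls gave 8 lower and 0 higher (median -1.50), and Map2k5 did not pass with the other scalings. Mapk13 (-2.30), Map2k1 (-1.61) and Mapk14 (-1.30) fell, the first and last encoding p38 kinases, while Map2k5 was higher by 0.85 and turned to -0.45 with the hybridization controls.

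ERK feedback genes, which like Dusp6 are made when ERK is active, had 3 of 7 tested members higher and 1 lower, with a median of 0.62 that turned to -0.43 with the hybridization controls. Spry1 (422 and 732 in leukemic, 72.0 and 19.4 in mature marrow, 3.36), Spry2 (2.25) and Spred1 (2.01) were higher, and Ier3 was lower (-1.88). Spry2 and Spred1 did not pass with the hybridization controls (1.01 and 0.75), and Spry1 did (2.23). Etv5 (-1.10) and Spry4 (0.62) did not pass, and Etv5 passed as lower with quantile normalization (-1.37, adjusted p = 0.041), with every array at the same median and with the hybridization controls. Of 26 tested tyrosine phosphatases and relatives outside the named families, 7 were higher and 3 lower (median 0.14, turning to -0.12 with every array at the same median and to -1.15 with the hybridization controls, where 1 was higher and 15 lower). The lipid phosphatase gene Mtm1 (4.06), Eya4 (2.17) and Ptp4a3 (1.87) were higher and the slingshot gene Ssh2 (-2.27) lower, but with the hybridization controls Eya4 (1.20) and Ptp4a3 (0.56) did not pass. Eya4 read 120 and 193 in leukemic and 8.34 and 41.7 in mature marrow. Its mature signals lay below 47.6, so it was tested through its leukemic signals.

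Markers of other cells were read beside these results. The summed signal of 9 monocyte and macrophage markers was 5597.6 to 8279 in leukemic and 28143 to 45208 in mature marrow, with 7 of 9 lower and 1 higher. That of 9 granulocyte markers was 233748 to 398087 against 313449 to 394504, so the groups overlapped, with 4 lower and 5 that did not pass, and with the hybridization controls 8 of 9 were lower. Mast cell and basophil markers summed to 57364 to 71710 against 11266 to 14618 (6 of 7 higher), stem and progenitor markers to 47498 to 58849 against 1130 to 1367 (8 of 8 higher), erythroid markers to 14774 to 26093 against 3092 to 7537 (3 of 4 higher) and megakaryocyte markers to 3048 to 3445 against 912 to 927 (2 of 6 higher). Most of the mast cell and basophil sum in mature marrow was Hdc (10202 and 13249), which did not pass (-0.51). Plasma cell markers summed to 6466 to 7791 against 12739 to 18740.2 (3 of 5 lower), with Igha at 10.8 and 8.59 against 5805 and 1023. Most of the plasma cell sum was Xbp1, at 7601 and 6246 against 12001 and 11211. B cell markers summed to 380.4 to 795 against 548 to 891 (0 of 4 passed). T cell markers summed to 286 to 366 against 468 to 481, with 1 of 2 higher and 1 lower. Cd247 was the higher one, at 103 and 230 against 18.6 and 4.70, and Cd3d the lower, at 42.6 and 6.30 against 373 and 384. In both genes the dimmer group lay below 47.6, so each was tested through its brighter group. NK cell markers summed to 1093 to 1757 against 1401 to 1798 (0 of 4 passed), and endothelial and stromal markers to 459 to 552 against 217 to 465 (1 of 4 higher). No marker was at 0. In 9 of the 11 lower members leukemic replicate 1 read above leukemic replicate 2. The granulocyte, monocyte, plasma cell, B cell, NK cell, megakaryocyte and endothelial sums had the same order. The mast cell, stem and progenitor, erythroid and T cell sums had the other order. Leukemic replicate 1 read below in 7 of the 9 higher members. The share of all tested genes with either order was not counted. The part of these cells in the results was not tested.

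**Figure D5:**
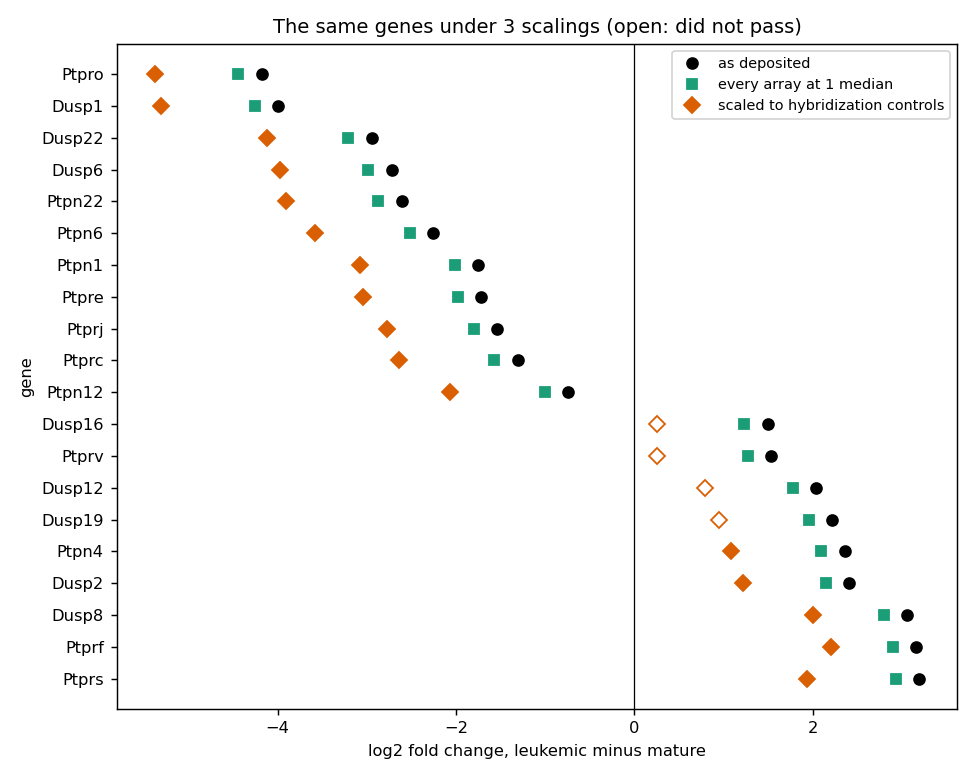
Log2 fold change (x axis) of the 20 members that passed (y axis) with the deposited scaling (black circles), every array at the same median (green squares) and arrays scaled to the hybridization controls (orange diamonds); open symbols did not pass. All 20 genes keep their side of 0 in the 3 settings, and the diamonds of Dusp16, Ptprv, Dusp12 and Dusp19 are open, at 0.26, 0.26, 0.79 and 0.95.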

How the data were processed

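The 4 single-colour arrays were hybridised with biotin-labelled total RNA, 2 per group. The authors computed the deposited linear intensities (MAS5 signal) in GCOS 1.3.0, according to the submitters' processing notes. Detection calls were not used here. Gene symbols came from the platform annotation. Of 45101 probe sets, 34945 had 1 symbol. The 932 with several, those with none and the 64 control probe sets were left out. Signals were taken as log2(signal + 16). Probe sets among the dimmest 40% by mean were dropped, which left 12378 genes, and the lowest kept mean was 47.6. The comparison was fitted in R 4.3.3 by limma 3.58.1 (lmFit, then eBayes with a variance trend, two-sided, 2 residual degrees of freedom, 6.90 after moderation), tested on simulated data. The design text calls the arrays of a group biological replicates, and nothing more is given on their source. The number of arrays limits the precision.

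The members, roles, pathway lists and markers were chosen with earlier results of these data known. Every member that passed was named, as were up to 4 passing genes of each pathway list, at most 3 in its commoner direction. The related pairs and the promoter motif shown were picked with the values known. Promoters came from RefSeq windows of GRCm38.p6, and figures from matplotlib 3.10.9 in Python 3.11.15. Alternatives covered the pseudocount, filter, scaling, probe set rule, variance model, replicate block and each array left out. The replicate number names arrays and is not said to pair them.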

Additional observations from a re-analysis of the deposited data

How the results depend on the processing

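The count of 20 members that passed ran from 15 to 24 over the settings that kept all arrays and from 14 to 21 with an array left out. With arrays scaled to the hybridization controls 5 members were higher and 19 lower. The members' median, 0.12 as deposited, moved to -0.12 with no filter, -0.21 with the lowest 60% left out, -0.046 with quantile normalization, -0.14 with every array at the same median and -1.13 with the hybridization controls, and lay between -0.17 and 0.10 with an array left out. Over all genes 2575 to 5441 passed with an array left out, 2575 of them without leukemic replicate 2 and 3429 without leukemic replicate 1. Of the 20 calls, 12 held in every setting that could be run for the gene: Dusp1, Dusp2, Dusp6, Dusp22, Ptpn1, Ptpn4, Ptpn6, Ptpn22, Ptpre, Ptprf, Ptpro and Ptprs. Without leukemic replicate 2, 6 of the 20 were lost. Without probe sets of the suffixes _x_at, _s_at and _a_at, which left 17 of the 20 to test, Dusp12 turned to -0.36, and with the hybridization controls Ptpn11 turned to -1.20 and Ptpra to -0.95. With a replicate block 21 members passed, 9 higher and 12 lower, and no call among the 20 was lost. Deviations of same-numbered arrays from their group means correlated at -0.03. That value gives no sign of a shared replicate effect, but it cannot show whether the arrays were paired. Dim probe sets have wide errors in MAS5 values, and the median SE over the members was 0.39 against 0.33 over all genes.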

Other observations

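Other letters were looked for in the same promoter windows of the members, on both strands. The AP-1 letters TGANTCA stood in 2 of 63 windows (3.17%) against 7.81% of all windows, the PU.1 letters GAGGAAG in 11 (17.5%) against 13.6%, the MEIS letters TGACAG in 16 (25.4%) against 19.2%, and the PBX and HOX letters TGATTNAT in 0 against 3.22%. The shorter cAMP response letters TGACG, which the palindrome contains, stood in 23 (36.5%) against 20.8%. Several windows belong to 1 gene, so windows are not independent, and no test was run.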
